A study of Rattus norvegicus with 9 samples.

Results

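Gene expression in the prefrontal cortex was related to the acoustic startle value of each animal across 9 male Lewis rats, an inbred strain. All 9 arrays of the series entered, as 1 group, and startle was used as a continuous measure, so no rats were split into classes. Of 15866 probe sets other than controls, the 40% with the lowest mean were left out and 9520 were related to startle. The animals weighed 200 to 250 g, were housed singly, received no treatment and were the arrayed members of 20 rats tested in the experiment. Their tissue, frontal areas Fr1 and Fr2 without the olfactory bulb, was taken 12 days after the last behavioural test. Each rat gave 1 Affymetrix array, and values are log2 expression per probe set. The question, from the study's title, is whether brain mRNA levels go with behaviour among animals of the same strain.

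The acoustic startle reflex is a fast contraction of the body muscles to a sudden loud sound. Its primary circuit runs through the brainstem, and forebrain regions modulate how strong it is. The prefrontal cortex, which projects to limbic and midbrain areas, is among the regions that have been linked to such modulation. A relation measured in this tissue therefore concerns a region outside the reflex arc itself.

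In order of startle the rats were rat 8 at 67.7, rat 7 at 153.7, rat 5 at 175.4, rat 9 at 230.0, rat 4 at 244.7, rat 2 at 295.8, rat 6 at 352.9, rat 1 at 458.6 and rat 3 at 501. The labels give no unit for these values. All slopes below are log2 units of expression per SD of startle, which was 142 over the 9 rats, and ± is the standard error with n = 9 unless stated. Rats 1 and 3, the 2 animals with the highest startle, lie farthest from the median.

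Before the results, 3 arrays need naming. On the first principal component, with 49.6% of the variance, rats 8 and 9 lay at 35.6 and 30.2 and the rest between -12.1 and -1.62, and rat 8 also had the lowest startle. Rat 3, with the highest startle, had the highest median log2 over all probe sets, 4.28 against 4.11 to 4.22 in the others. The limma array quality weights, were 0.29 for rat 8, 0.42 for rat 9 and 0.57 for rat 3, the 3 lowest of the 9. Counts and list medians are therefore in many cases also given in the 7 rats without 8 and 9, and without rat 3. For single genes this is done only where stated. In this cortical tissue Slc17a7, the vesicular glutamate transporter of cortical excitatory neurons, was present at a median log2 of 11.44, while Drd1, Drd2 and Adora2a of striatal neurons and Th and Omp of the olfactory bulb lay below the filter on low values. Other markers of those regions were measured, 5 of 15 striatal ones (Pde10a, Pde1b, Penk, Rasd2 and Ppp1r1b, at mean log2 values of 5.68 to 9.13) and 3 of 14 of the olfactory bulb (Kctd12 at 8.76, Reln at 8.42 and Cdhr1 at 3.27), and some of these are also expressed in cortex.

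In limma 0 probe sets had an adjusted p under 0.05 (0.00%), so nothing below is called changed. At an adjusted p under 0.1 were 4 probe sets (0.0420%), for Atf5, Mapre3, Adgrb1 and a second probe set of Dhx36, which makes 3 of the genes tested by 1 probe set each (0.0442%). The unadjusted p was under 0.05 for 1260 probe sets (13.2%), with a positive slope for 847 (8.90%) and a negative slope for 413 (4.34%). It was under 0.01 for 238 (2.50%), 122 positive (1.28%) and 116 negative (1.22%). Over 6793 genes, with 1 probe set each, the counts under 0.05 were 844 (12.4%), 529 positive (7.79%) and 315 negative (4.64%). Under 0.01 they were 177 genes (2.61%), 84 positive (1.24%) and 93 negative (1.37%). Slopes over all genes had a median of 0.021, with a 5th percentile of -0.173 and a 95th percentile of 0.184, and 62.1% of them were positive.

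The balance of direction varied with the arrays included. Of the genes with an unadjusted p under 0.05, 62.7% had a positive slope with all 9 rats, 54.0% without rats 8 and 9, 58.7% without rat 3, 61.6% without rat 8 and 73.9% without rats 1 and 3. When the fit held a term that sets rats 8 and 9 apart it was 46.8%, with 255 positive and 290 negative genes. For an unadjusted p under 0.01, leaving out rat 8 gave 293 positive probe sets where all 9 rats gave 122, and leaving out rat 3 gave 76 and rat 6 gave 68. The negative count at that level, 116 with all rats, was 77 without rat 1.

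**Figure D1:**
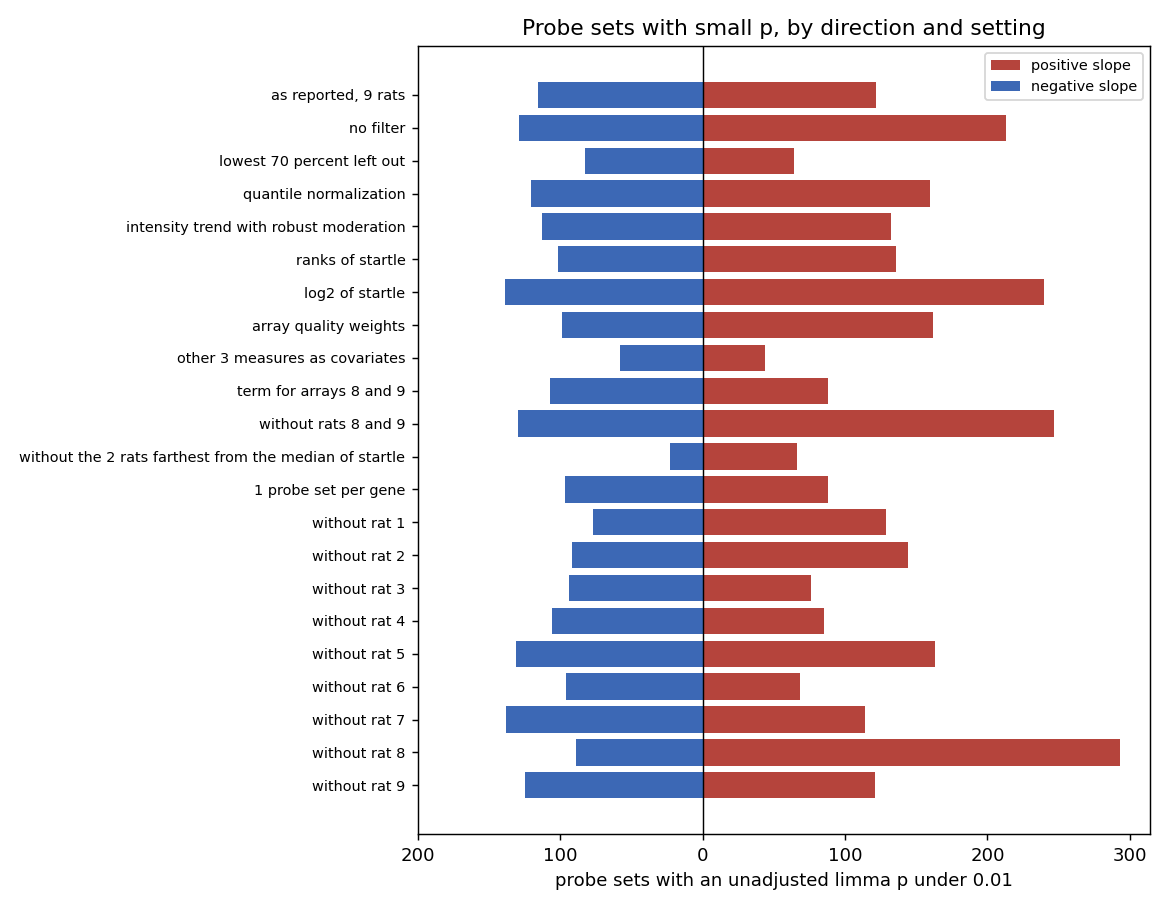
Bars give the number of probe sets with an unadjusted limma p under 0.01, positive slopes to the right and negative slopes to the left, for the 9 rats as reported and for each alternative setting. The positive count is 293 without rat 8 and 68 without rat 6, while the negative count is 23 without rats 1 and 3.

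Promoter sequences are shown for genes on which the results turn, so that the level of each gene can be set beside the DNA before its start. These are the 250 bases before the annotated start, 5′ to 3′ on the gene's strand, from RefSeq on build GRCr8, and the table gave a promoter for 27 of the 30 leading genes. Capitals mark letters that matched, on either strand, 1 of 6 motifs searched, namely the cyclic AMP response element TGACGTCA, the CCAAT box CCAAT, the GC box GGGCGG, the TATA box TATAAA, the E box CACGTG and the amino acid response element TTGCATCA. For the genes Atf5 and Mapre3, with negative slopes, the windows are chr1:104434796-104435045 and chr6:31244904-31245153. For Dhx36 and Id2, with positive slopes, they are chr2:149044192-149044441 and chr6:47470996-47471245. All 4 lie on the minus strand.
Atf5: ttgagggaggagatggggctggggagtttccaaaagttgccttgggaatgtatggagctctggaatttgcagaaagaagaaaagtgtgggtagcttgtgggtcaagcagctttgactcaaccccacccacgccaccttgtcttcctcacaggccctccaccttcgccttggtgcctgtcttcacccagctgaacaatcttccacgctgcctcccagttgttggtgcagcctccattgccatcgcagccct
Mapre3: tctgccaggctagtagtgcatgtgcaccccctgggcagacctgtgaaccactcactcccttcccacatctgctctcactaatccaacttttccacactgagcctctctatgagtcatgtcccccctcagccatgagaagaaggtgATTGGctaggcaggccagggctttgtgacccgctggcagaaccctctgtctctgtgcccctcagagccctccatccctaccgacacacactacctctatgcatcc
Dhx36: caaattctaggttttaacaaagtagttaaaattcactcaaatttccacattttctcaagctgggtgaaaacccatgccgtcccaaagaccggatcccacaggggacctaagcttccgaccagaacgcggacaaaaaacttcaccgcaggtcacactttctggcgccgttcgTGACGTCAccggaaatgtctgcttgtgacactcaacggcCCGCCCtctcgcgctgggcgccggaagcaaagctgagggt
Id2: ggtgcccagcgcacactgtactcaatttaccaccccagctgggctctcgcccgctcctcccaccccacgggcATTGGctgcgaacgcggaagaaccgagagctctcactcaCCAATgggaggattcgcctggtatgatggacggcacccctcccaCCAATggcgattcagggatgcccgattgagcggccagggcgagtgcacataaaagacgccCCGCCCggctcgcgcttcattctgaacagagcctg

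The window of Dhx36 holds the cyclic AMP response element 79 bases and a GC box 40 bases before the start. That element was found in 2.92% of the 5712 promoters of tested genes, and among the leading genes in Dhx36 and Syn1. Id2 has 3 CCAAT boxes, at 178, 139 and 95 bases, and a GC box at 35 bases, motifs found at least once in 35.9% and 62.3% of promoters. Mapre3 has 1 CCAAT box, read on the opposite strand, at 105 bases. The Atf5 window holds none of the 6 motifs, and its GC content was 55.2% against 62.8% for Id2. The TATA box letters were in 6.43% of promoters, the E box letters in 8.74% and the amino acid response element in 0.490%. A match is a description of letters and was not tested as a binding site.

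Atf5, a leucine zipper transcription factor known from stress responses and neural progenitors, had the smallest p of all probe sets. Its log2 expression was 5.58 in rat 3, the lowest, 6.08 at the median and 6.58 in rat 8, the highest. Of the 36 pairs of rats 33 were in the order a negative relation gives, and the other 3 were ties, since rats 9, 4 and 2 had an identical value of 6.08. The deposited values thus hold no information on order among these 3 animals. The slope was -0.30 ± 0.033 (limma adjusted p = 0.0745).

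Adgrb1, the adhesion G protein-coupled receptor also called BAI1, is found at synapses and in phagocytic signalling. Its log2 expression ran from 8.77 in rat 3 through a median of 9.31 to 9.71 in rat 8, and 35 of 36 pairs of rats were in order. The slope was -0.36 ± 0.048 (limma adjusted p = 0.0826). Mapre3 encodes EB3, which tracks growing microtubule ends and enters dendritic spines. It was lowest in rat 1 at 8.65, had a median of 9.17 and was highest in rat 7 at 9.53. Of its 36 pairs 33 were in order, and the slope was -0.30 ± 0.039 (limma adjusted p = 0.0826). So its extremes were not the same animals as those of Atf5 and Adgrb1. However, rat 3 at 8.66 and rat 8 at 9.46, arrays that stood apart, lay next to its ends.

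Syn1 encodes synapsin I, which tethers synaptic vesicles. Its log2 expression was 10.59 in rat 1, 11.02 at the median and 11.29 in rat 8, and the slope was -0.23 ± 0.039. Pearson r was -0.928 and Spearman rho -0.917, with exact permutation p-values of 0.000559 and 0.00131, and the limma adjusted p was 0.245. Without rats 1 and 3 r became -0.803, and without rats 8 and 9 it was -0.936. A further Syn1 probe set, at a mean log2 of 9.59, gave -0.22 ± 0.092. Its relation was weaker, with r = -0.637 and rho = -0.500 (exact permutation p-values of 0.0668 and 0.178). Scamp3, a carrier protein of endosomal and Golgi membranes, had a wider range, from 5.69 in rat 3 to 7.07 in rat 8 with a median of 6.58. Both r and rho were -0.900, with exact permutation p-values of 0.000413 and 0.00203, and the limma adjusted p was again 0.245. Without rats 1 and 3 r became -0.824, and without rats 8 and 9 it was -0.873. Both genes are part of vesicle traffic, and neither passed the adjusted threshold.

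Among positive slopes, Dhx36 covered the widest range of the 30 leading genes. Its product is a DEAH box helicase that unwinds G-quadruplex structures in RNA and DNA. The log2 level was 8.33 in rat 8, 9.65 at the median and 10.38 in rat 3, a 4.14-fold span with 34 of 36 pairs in order. The slope was 0.62 ± 0.095 (limma adjusted p = 0.20). The second probe set, at a mean log2 of 7.66, gave 0.28 ± 0.036, with r = 0.962 and rho = 0.967 (exact permutation p-values of 3.58e-05 and 0.000165). Probe sets of 1 gene share the RNA of the same rats and are not replicates.

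Dnajc24, a J-domain protein of diphthamide synthesis, was near the low end of measured levels, at 3.81 in rat 8, 4.52 at the median and 5.28 in rat 3. The slope was 0.39 ± 0.066 (limma adjusted p = 0.245). Id2 encodes an inhibitor of basic helix-loop-helix transcription factors and is expressed in upper-layer neurons. It was lowest in rat 7 at 9.81, had a median of 10.14 and was highest in rat 1 at 10.55, with 31 of 36 pairs in order. Its slope was 0.25 ± 0.047 (limma adjusted p = 0.328). Of the 15 leading positive genes Id2 was the only one whose highest value was not in rat 3. For Id2 the further probe set, at a mean log2 of 7.27, gave a smaller slope of 0.037 ± 0.056, with r = 0.239 (exact permutation p = 0.547).

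Ghitm, a protein of the inner mitochondrial membrane, ran from 9.55 in rat 7 through 9.80 to 10.14 in rat 3. The slope was 0.18 ± 0.037, with r = 0.904 and rho = 0.887 (exact permutation p-values of 0.00131 and 0.00247, limma adjusted p of 0.359). Without rats 1 and 3 r became 0.710, and without rats 8 and 9 it was 0.890. A further Ghitm probe set gave 0.25 ± 0.074. Gosr1, a SNARE protein of Golgi transport, ran from 8.30 in rat 7 through 8.64 to 9.30 in rat 3. The slope was 0.27 ± 0.056, with r = 0.871 and rho = 0.820 (exact permutation p-values of 0.00197 and 0.00928, limma adjusted p of 0.359). Without rats 1 and 3 r became 0.667, and without rats 8 and 9 it was 0.943. A further Gosr1 probe set was opposite in sign, at -0.028 ± 0.14. The genes were picked for small p, so these p-values describe the choice and add no separate evidence.

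**Figure D2:**
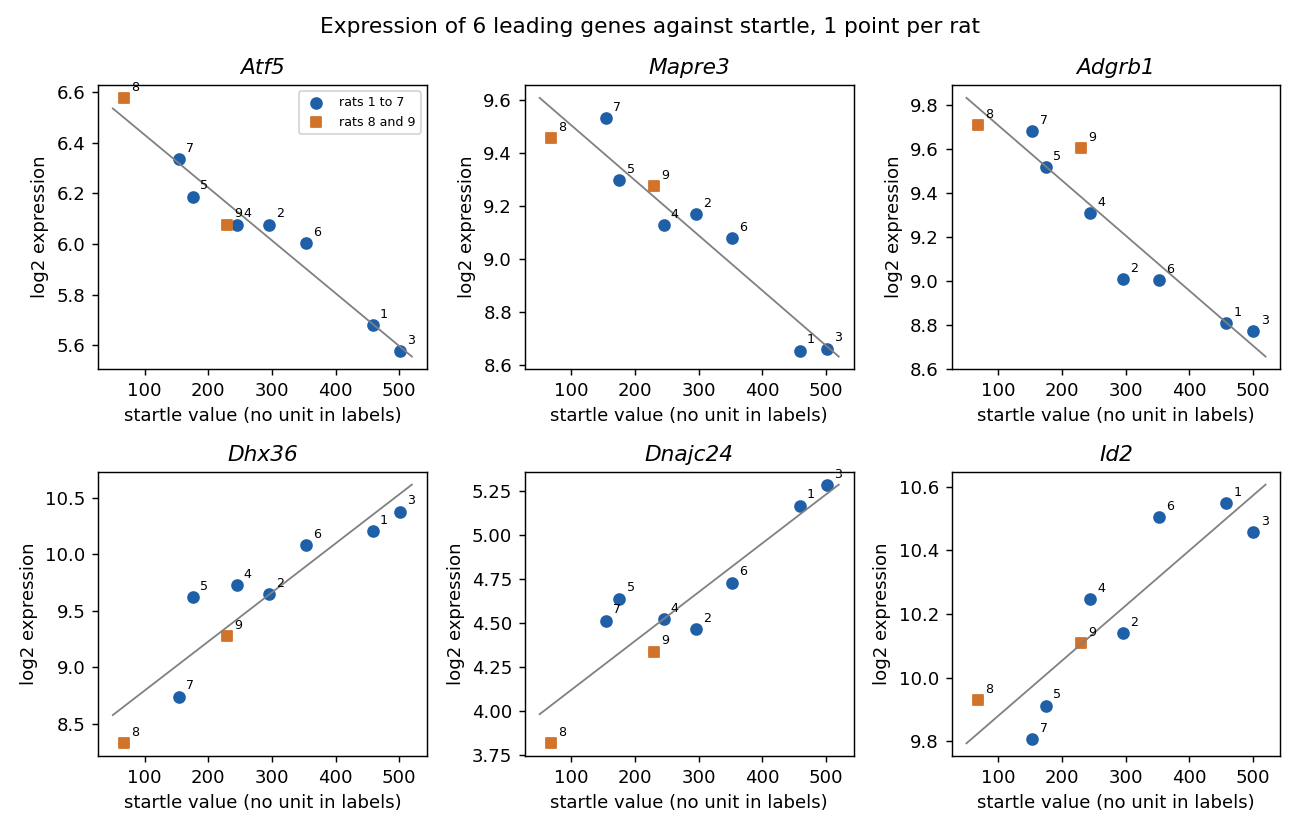
Log2 expression (vertical axis) against the startle value (horizontal axis, no unit in the labels) for 6 leading genes, with 1 point per rat, the fitted line in grey and rats 8 and 9 as squares. Atf5, Mapre3 and Adgrb1 slope down and Dhx36, Dnajc24 and Id2 slope up over the range of startle from 67.7 to 501, and for Dhx36 rat 8 lies lowest at 8.33.

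The other 10 leading negative genes were Sik2, Kctd17, Dpf1, Supt6h, Col4a2, Sap30l, Cotl1, Ctdnep1, Pias3 and Sptan1. Sptan1, the brain spectrin alpha chain beneath the membrane, had the highest mean log2 of the leading negative genes, 11.76, and the smallest slope, -0.17 ± 0.036. Cotl1, an actin-binding protein related to cofilin, ran from 4.92 in rat 1 to 6.30 in rat 8 and had a slope of -0.37 ± 0.073. Several act in the nucleus, as do some of the leading positive genes, such as Id2 and Ccnc. Dpf1 is a neuronal subunit of the BAF chromatin remodelling complex, Supt6h a transcription elongation factor, Sap30l a part of a histone deacetylase complex and Pias3 a SUMO ligase, with slopes of -0.22, -0.26, -0.21 and -0.26. Sik2, a kinase that acts on CREB coactivators, had -0.31, and Ctdnep1, a phosphatase of the nuclear envelope, had -0.20.

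The other 10 leading positive genes were Ccnc, Ostc, Srprb, Zfp347, Gatad1, Ccdc22, Suclg1, Serpinb9, Cpsf6 and Hikeshi. Suclg1, a subunit of succinyl-CoA ligase in the citric acid cycle, had a slope of 0.24 ± 0.054, with 34 of 36 pairs of rats in order. Hikeshi, which carries Hsp70 into the nucleus, had 0.18 ± 0.042 and the smallest span of the leading genes, 1.46-fold. Cpsf6, part of the cleavage and polyadenylation machinery, had 0.23 ± 0.052 at the lowest mean level of the leading positive genes, a log2 of 4.10. Serpinb9, an inhibitor of granzyme B, had 0.24 ± 0.054, and its further probe set 0.036 ± 0.050. Ccdc22, an endosomal sorting protein, had 0.15 ± 0.035. Zfp347 and Gatad1, both zinc finger proteins, had 0.29 and 0.22, and Ccnc, cyclin C of the Mediator kinase module, had 0.18.

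Which animals set the ends of these ranges differed by direction. Among the 15 leading negative genes the lowest value was in rat 3 for 9 and in rat 1 for 6, and the highest was in rat 8 for 12 and in rat 7 for 3. Among the 15 leading positive genes the highest value was in rat 3 for 14, and the lowest was in rat 8 for 10, in rat 7 for 4 and in rat 9 for 1. The genes were chosen for a relation with startle, so this is a description of the animals at its ends. Further probe sets were tested for 8 of the 30 genes, and 7 had the sign of the first. Over all 890 genes with a further probe set the share of equal sign was 57.0%.

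**Figure D3:**
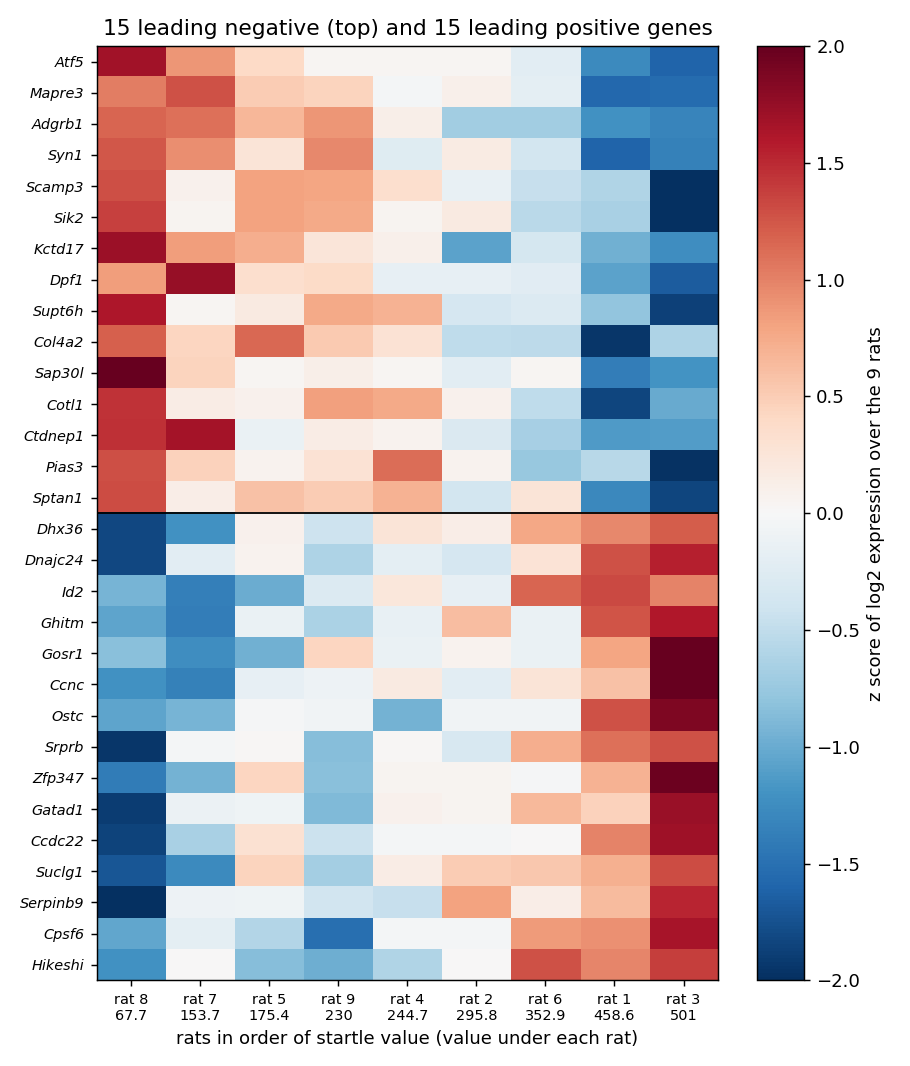
Colour gives the z score of log2 expression over the 9 rats for each of the 15 leading negative genes (above the line) and the 15 leading positive genes, with rats from left to right in order of startle. Rat 3 at the right end holds the highest value of 14 of the positive genes and the lowest of 9 of the negative genes.

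All 30 genes were tested again in subsets of the rats. Each kept its sign in every alternative run and each had an unadjusted limma p under 0.05 without rats 8 and 9, without rat 3 and without rat 8. The genes were chosen for small p in the same 9 rats, which largely fixes this, so it is given as a description. Without rats 1 and 3, 13 of the 15 negative and 9 of the 15 positive genes did. The ranking of genes differed between subsets. Among the 15 smallest p in each direction without rats 8 and 9, 5 of the negative genes stayed, namely Adgrb1, Atf5, Dpf1, Mapre3 and Syn1, and 3 of the positive genes, namely Cpsf6, Gosr1 and Id2. Dhx36, Dnajc24 and Id2 were the positive genes that stayed without rat 3. Without rats 1 and 3 it was Dhx36 alone, with Adgrb1, Atf5, Col4a2 and Kctd17 on the negative side.

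None of the 30 leading genes had an unadjusted limma p under 0.05 for another behaviour of these rats. The lowest was 0.150 for locomotion, 0.186 for the plus maze and 0.0778 for sugar feeding, each over the 30 genes. Slopes per SD of these measures lay between -0.16 and 0.17, against sizes of 0.15 to 0.62 for startle. The genes were chosen on startle, so the lower values for the other measures do not show a relation particular to it. Over all probe sets 238 had an unadjusted p under 0.01 for startle, 27 for locomotion, 44 for the plus maze and 15 for sugar feeding. With no relation, 95.2 would be expected on average at that level. With the other 3 measures as covariates, startle gave 44 positive and 58 negative probe sets. Probe sets share the same rats and are not independent, so the difference between these counts was not tested.

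Dim probe sets behaved unlike the rest. The tested probe sets were put into 4 equal classes of 2380 by mean level. In the dimmest class, with a mean log2 of 3.22 to 4.93, 16.1% had an unadjusted limma p under 0.05 with a positive slope and 1.51% with a negative slope. In the other 3 classes positive shares were 5.71%, 7.06% and 6.68% and negative shares 4.33%, 5.34% and 6.18%. Rat 3 had the highest median of the dimmest class, a log2 of 3.97 against 3.77 to 3.90 in the other 8 rats. Without rat 3 the positive share of that class was 1.93% and the negative share 1.51%. It was 24.2% and 0.714% without rat 8, 22.4% and 1.26% without rats 8 and 9, and 12.4% and 4.37% after quantile normalization. The positive excess among dim probe sets was therefore not present in the 8 rats without rat 3. Of the leading genes, Dnajc24, Cpsf6 and Ccdc22 have means in this range.

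**Figure D4:**
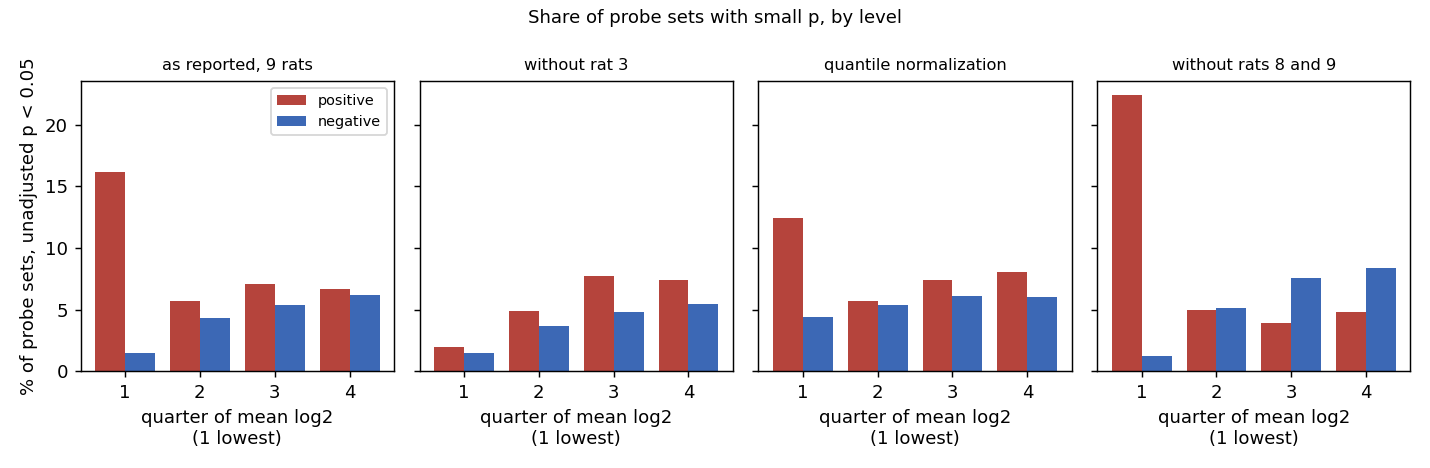
Bars give the percent of probe sets with an unadjusted limma p under 0.05 and a positive or negative slope, in 4 classes of mean log2 expression from the dimmest (1) to the brightest (4), with 1 panel per setting. In the dimmest class the positive bar stands at 16.1% for the 9 rats and at 1.93% without rat 3.

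Genes were then grouped by role, from lists of synaptic, signalling, stress and housekeeping genes and of cell type markers. In each list the share of members with an unadjusted limma p under 0.05 is to be read against 7.79% positive and 4.64% negative over all genes, and the median slope against 0.021. Over all genes the median slope was 0.0009 without rats 8 and 9 and 0.025 without rat 3. In limma 0 members of any list had an adjusted p under 0.05. Several lists were drawn up around leading genes (Syn1, Adgrb1, Mapre3, Atf5, Dhx36, Id2, Ostc), which they hold by choice. The tissue was homogenised whole, so fewer cells of a type and less RNA per cell cannot be told apart.

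Presynaptic vesicle genes leaned to negative slopes. Of 41 listed genes 32 passed the filter on low values, 23 had a negative slope and 6 of these had an unadjusted p under 0.05, with 0 on the positive side. The median slope was -0.054, with -0.040 without rats 8 and 9 and -0.060 without rat 3. Beside Syn1 and Scamp3 the 6 were Dnm1, the dynamin of vesicle endocytosis, at -0.19 ± 0.050, Slc17a7 at -0.27 ± 0.085, Bin1, a membrane-curving protein, at -0.20 ± 0.069 and Sv2a, a vesicle membrane glycoprotein, at -0.18 ± 0.070. Dnm1 was 11.63 in rat 3, 12.21 at the median and 12.43 in rat 8. Among the genes of fusion and synapsins 10 of 13 slopes were negative, and among those of vesicle membrane and scaffold 13 of 19.

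Postsynaptic scaffold and spine genes gave 26 measured of 37, with 18 negative slopes. With an unadjusted p under 0.05 were 5 negative and 2 positive, and the median slope was -0.092. The negative members were Adgrb1, Dlgap3, a scaffold of the postsynaptic density, at -0.33 ± 0.093, Shank1, another scaffold, at -0.20 ± 0.076, Limk1, a kinase of cofilin, at -0.33 ± 0.13 and Nrxn2, a neurexin, at -0.24 ± 0.11. Dlg1, the scaffold SAP97, and Ppp3cb, a catalytic subunit of calcineurin, went the other way at 0.16 ± 0.045 and 0.14 ± 0.043. Dlgap3 ranged from 7.48 in rat 1 to 8.82 in rat 8 around a median of 8.10. Without rats 8 and 9 the counts were 1 negative and 3 positive, and the median slope -0.060. Shank1 was dim, at 2.97 in rat 6, 3.09 at the median and 3.82 in rat 8. Its mean of 3.23 passed the filter, at 3.22, through the arrays where it was high, so its count among the negative members has no weight of its own, and its slope was -0.09 without rats 8 and 9.

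Genes of microtubule ends and the neuronal cytoskeleton held 25 measured of 28. There were 16 negative slopes, 5 with an unadjusted p under 0.05 and 0 positive ones, at a median of -0.049. Next to Mapre3 these were Ina, a neurofilament protein, at -0.13 ± 0.038, Map1a, which binds microtubules in dendrites, at -0.34 ± 0.10, Mapt, the axonal protein tau, at -0.45 ± 0.16 and Stmn2, a tubulin-binding protein of growing axons, at -0.18 ± 0.061. Mapt was 11.25 in rat 1, 11.72 at the median and 13.02 in rat 8, and its slope was -0.20 without rats 8 and 9. Without this pair of arrays 8 members had a negative slope at an unadjusted p under 0.05 and the median was -0.065, but without rat 3 the median was 0.015.

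Immediate early genes, which neurons switch on within minutes of activity, had 17 measured of 25 and a median slope of -0.141. Of the 11 measured transcription factors among them 9 had a negative slope, and 2, Klf10 and Egr1, had an unadjusted p under 0.05. Klf10, a zinc finger factor, was 6.66 in rat 1, 7.97 at the median and 8.59 in rat 9, with a slope of -0.51 ± 0.12. Egr1 was 10.09 in rat 2, 10.51 at the median and 11.29 in rat 7, with a slope of -0.25 ± 0.11. Junb had -0.60 ± 0.27, Egr2 -0.44 ± 0.20, Arc, a synaptic effector, -0.35 ± 0.19 and Fos -0.15 ± 0.23. The list median was -0.054 without rats 8 and 9, with 2 positive and 1 negative members at an unadjusted p under 0.05, and -0.223 without rat 3, with 0 and 4. The summed level of the transcription factors was highest in rat 7.

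Receptors of the main cortical transmitters gave few small p-values. For glutamate 13 of 22 were measured, with 9 negative slopes, a median of -0.069 and 2 negative members at an unadjusted p under 0.05. These were Grik5, a kainate receptor subunit, at -0.22 ± 0.062 and Grin2c, an NMDA receptor subunit, at -0.13 ± 0.049. Gria1, an AMPA receptor subunit, had -0.54 ± 0.30, and -0.07 without rats 8 and 9. For GABA 13 of 21 were measured. The median was 0.019, and its sign turned without rats 8 and 9, to -0.072 with 2 negative members, as it did in 5 of 21 alternatives. With all rats Gad2, which makes GABA, was the 1 negative member, at -0.65 ± 0.23. Gad2 was 3.15 in rat 3, 3.72 at the median and 6.20 in rat 8, and its mean log2 of 4.13 lies in the dimmest class. Its slope was -0.24 without rats 8 and 9 (unadjusted limma p of 0.184).

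Markers of interneurons had 8 of 11 slopes positive, a median of 0.084 and 0 members at an unadjusted limma p under 0.05 in either direction, with Calb1, a calcium buffer, at 0.14 ± 0.064. Without rats 8 and 9 the median was -0.008, and without rat 3 it was 0.091 with 4 positive members at an unadjusted p under 0.05. Of 24 monoamine receptors 7 were measured and 0 had an unadjusted limma p under 0.05, the nearest being Htr2a, a serotonin receptor, at 0.19 ± 0.092. The 5 dopamine receptors all lay below the filter on low values, so their relation with startle was not measured here. Of 15 opioid and cannabinoid genes 4 were measured, with slopes from -0.05 for Oprl1, the nociceptin receptor, to 0.08 for Penk, which encodes proenkephalin.

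The stress axis was close to the background. Of 24 genes 17 were measured, with 1 positive and 1 negative member at an unadjusted p under 0.05 and a median of -0.012, which was 0.006 without rats 8 and 9 and 0.013 without rat 3. Hsd11b1, which regenerates active glucocorticoid, had 0.18 ± 0.067 and was highest in rat 3 at 9.32, with a median of 8.65. Per1, a clock gene that glucocorticoids induce, had -0.41 ± 0.17. The glucocorticoid receptor Nr3c1 had 0.07 ± 0.11 and Fkbp5, a target of it, -0.01 ± 0.033.

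Slopes of the genes around Atf5 were spread over both directions. Of 40 genes of the ATF4 and ATF5 stress response 32 were measured, and 22 had a positive and 10 a negative slope, with a median of 0.033, where 62.1% of all genes had a positive slope. Beside Atf5, the 1 negative member at an unadjusted p under 0.05, the positive members were 3, namely Slc3a2, an amino acid transporter chain, at 0.17 ± 0.055, Trib3, a pseudokinase, at 0.16 ± 0.054 and Crem, a CREB family factor, at 0.22 ± 0.082. Atf4, the factor most closely related to Atf5, had -0.06 ± 0.048, and Ddit3, a factor it induces, -0.03 ± 0.082. Trib3 and Crem, at mean log2 values of 4.34 and 4.75, lie in the dimmest class and were highest in rat 3, at 4.74 and 5.40. Without rats 1 and 3 their slopes were 0.06 and 0.03, and that of Slc3a2 was 0.16.

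The relatives of Dhx36 and Id2 gave mixed directions. Of 35 DEAH and DEAD box helicases 24 were measured, the median slope was 0.016 and Ddx21, a nucleolar helicase, was the other positive member at an unadjusted p under 0.05, at 0.33 ± 0.12. The slope of Ddx21 was 0.13 without rats 8 and 9, where the list median turned to -0.026 and the list had 1 positive and 3 negative such members. In the Id and bHLH list, with 11 measured of 19, 2 positive and 3 negative members had an unadjusted p under 0.05. Id1 had -0.39 ± 0.17, opposite to Id2, and Tcf4, a bHLH factor that Id proteins bind, had -0.33 ± 0.11. The others were Hes1, a repressor of neurogenic genes, at -0.13 ± 0.053 and Tcf12, another bHLH factor, at 0.08 ± 0.035. Without rats 8 and 9 the counts were 1 positive and 2 negative, and without rat 3 they were 1 and 1. Id1 reached 6.79 in rat 8 against a median of 5.25, and its slope was -0.09 without rats 8 and 9.

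Genes of protein entry into the endoplasmic reticulum and of N-glycosylation held 8 of 38 measured members (21.1%) with a positive slope at an unadjusted p under 0.05, against 7.79% over all genes. Of these 38, from 44 listed, 26 had a positive slope, a share near the 62.1% of all genes, and 8 positive and 1 negative had an unadjusted p under 0.05, at a median of 0.044. The positive ones include Gosr1, Ostc of the oligosaccharyltransferase at 0.18 ± 0.038, Srprb of the signal recognition particle receptor at 0.22 ± 0.048, Tram1, a translocon partner, at 0.10 ± 0.027 and Rpn2, also of the oligosaccharyltransferase, at 0.12 ± 0.042. Srp19, part of the signal recognition particle, had -0.14 ± 0.046. Tram1 covered a narrow range, from 8.33 in rat 8 through 8.43 to 8.67 in rat 3. Without rats 8 and 9 there were 5 positive and 0 negative members, and the median was 0.007 against 0.0009 over all genes. The list was drawn up with Ostc, Srprb and Gosr1 known as leading genes, so its count holds them by choice.

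Heat shock and DnaJ chaperones had 36 measured of 46, with 4 positive (11.1%, against 7.79% over all genes) and 0 negative at an unadjusted p under 0.05. All 4, Dnajc24, Dnajb4, Dnajc15 and Dnajb9, were DnaJ proteins. Dnajc24 is a leading gene, already chosen for its small p. Without rat 3 there were 8 positive members, and without rats 8 and 9 there were 3 positive and 1 negative, with Dnajb9 at 0.047 where it had 0.32 and Dnajc15 at 0.052 where it had 0.14. Respiratory chain and ATP synthase genes had 68 measured of 76, with 3 positive (4.41%, against 7.79% over all genes) and 1 negative. Their median was 0.024, and the largest slope was that of Ndufs1 of complex I at 0.22 ± 0.067. There were 5 positive and 0 negative members without rat 3. Without rats 8 and 9 there were 2 positive and 2 negative, at a median of 0.009. Proteasome subunits had 30 measured of 34, with 2 positive and 0 negative, and cytosolic ribosomal proteins 39 of 78, with 1 of each. Without rats 8 and 9 these were 0 positive and 2 negative for the proteasome and 5 positive and 0 negative for ribosomal proteins, whose median of 0.027 turned to -0.011 without rat 3.

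Voltage-gated ion channels had 42 of 64 measured and 5 negative (11.9%, against 4.64% over all genes) and 2 positive at an unadjusted p under 0.05, and the same counts without rats 8 and 9. Among the negative ones were the calcium channel subunits Cacnb3 at -0.20 ± 0.064 and Cacnb1 at -0.18 ± 0.059 and the potassium channel Kcnc1 at -0.24 ± 0.084.

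**Figure D5:**
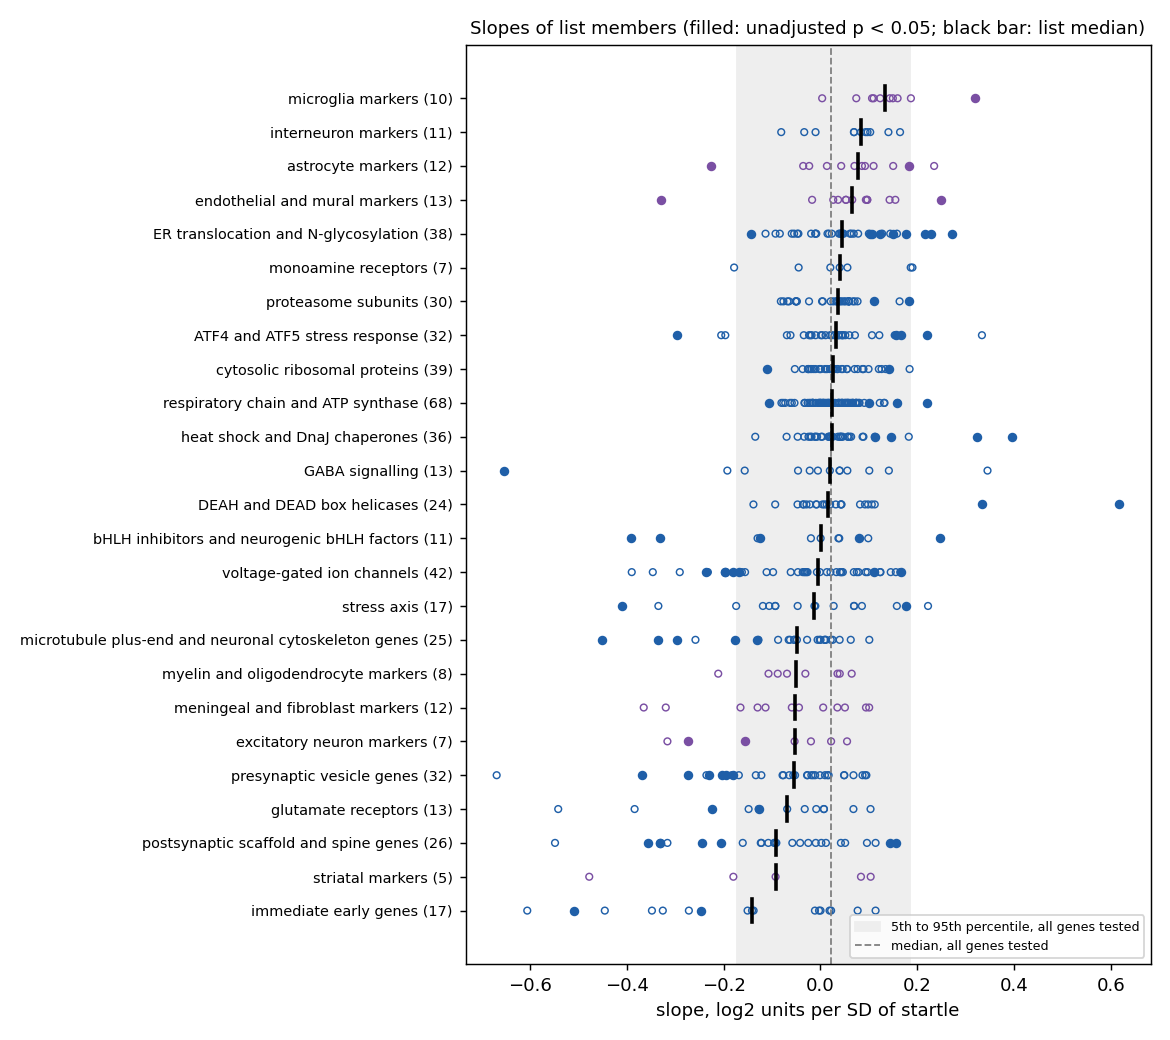
Each row is a gene list with the number of measured members in brackets, each point is the slope of 1 member in log2 units per SD of startle, filled where the unadjusted limma p was under 0.05, and the black bar is the list median. The grey band runs from -0.173 to 0.184, the 5th to 95th percentile of all genes tested, and the dashed line is their median of 0.021.

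Slopes of microglia, endothelial and astrocyte markers were positive for most members, beside 62.1% of all genes. Some of these markers lie in the dimmest class, whose positive excess was not present without rat 3. Among them are Flt1, Vwf and Pdgfrb, at mean log2 values of 3.74, 3.66 and 3.87 and highest in rat 3, and Slc1a2 at 3.92. Others, such as Cldn5 at 9.26 and Slc1a3 at 11.24, are not dim. All 10 measured microglia markers of 17 listed had a positive slope, at a median of 0.133, and 1, the purinergic receptor P2ry12 at 0.32 ± 0.13, had an unadjusted p under 0.05. P2ry12 was lowest in rat 8, at 6.51, and its slope was 0.09 without rats 8 and 9. The summed linear level of the list ran from 1591 in rat 9 to 2516 in rat 3, and the median slope was 0.161 without rats 8 and 9 and 0.054 without rat 3. Of 13 measured endothelial and mural markers 11 had a positive slope, at a median of 0.065, and 0.014 without rat 3. Slco1a4, a transporter of the blood-brain barrier, had 0.25 ± 0.060, while Col4a2 is among the leading negative genes. Of 12 measured astrocyte markers 9 had a positive slope at a median of 0.078, with Slc1a3, a glutamate transporter, at 0.18 ± 0.067 and Gfap, an intermediate filament protein, at -0.23 ± 0.091. Astrocyte members at an unadjusted p under 0.05 were 3 positive and 0 negative without rats 8 and 9, and 0 of either without rat 3. The summed level of all 3 marker lists was highest in rat 3, and their part in the other relations was not tested.

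Slopes of neuronal and other markers were mixed. Of 7 measured markers of excitatory neurons 5 had a negative slope, at a median of -0.053, with Cux2 of upper layers at -0.15 ± 0.040 and Slc17a7 as above. Myelin markers had 8 measured of 16 and 0 at an unadjusted limma p under 0.05, with a median of -0.050 0.011 without rats 8 and 9 and -0.140 without rat 3, where 2 members were negative at that level. Meningeal markers had 12 measured of 15 and 0 such members. Their summed linear level ran from 755 in rat 5 to 5702 in rat 2, whose startle values were 175.4 and 295.8. Of choroid plexus, red blood cell, striatal and olfactory bulb markers 3 of 9, 3 of 8, 5 of 15 and 3 of 14 were measured, with 1, 1, 0 and 1 positive members at an unadjusted p under 0.05 and 0 negative ones.

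Promoter base composition differed between the leading genes of the 2 directions. Median GC of the 250 bases before the start was 52.0% for 14 leading positive genes and 65.2% for 13 leading negative genes, against 60.8% for all 5712 tested genes with a promoter in the table. Of the 84 positive genes at an unadjusted p under 0.01, 78 had a promoter. Their median GC was 57.8% (quartiles 50.1% and 65.9%), nearer to that of all genes. Over all 5712 genes the median slope was 0.034 in the class of lowest promoter GC among 4 and 0.020, 0.016 and 0.012 in the next 3. In the same order 11.4%, 6.51%, 7.38% and 6.49% of genes had an unadjusted p under 0.05 with a positive slope, and 2.63%, 3.47%, 5.01% and 6.13% with a negative slope. Without rats 8 and 9 the medians were 0.0094, -0.0014, -0.0003 and -0.0045, and without rat 3 they were 0.043, 0.024, 0.020 and 0.017. The medians thus fell at each step with all rats and without rat 3, but not at each step without rats 8 and 9. Differences between the medians were small in each case, and genes are not independent replicates. Mean expression differed too, with a median mean log2 of 6.80 in the lowest and 7.32 in the highest class, and its part was not tested. For the 93 negative genes at an unadjusted p under 0.01 the comparison is void, since only 76.3% had a promoter in the table.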

How the data were processed

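Prefrontal RNA of each rat was read on 1 Affymetrix array. The log2 values per probe set were computed by the authors with GCRMA under R 2.6.2, as the submitters' processing notes state. GCRMA is a method that adjusts probe signals for background from base composition, puts arrays on a common scale and gives 1 value per probe set. The sources used here do not give its options. An identical value in at least 2 rats was found for 47.0% of tested probe sets.

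Startle slopes were fitted with limma 3.58.1 in R 4.3.3 (lmFit, eBayes, two-sided, 7 residual degrees of freedom) over 9520 probe sets, with Benjamini-Hochberg adjustment. Correlations used two-sided exact permutation tests over the 362880 pairings of rats, with numpy 2.4.6 and pandas 2.3.3 in Python 3.11.15. Here p-values measure the spread between animals with 1 array each, and the number of arrays limits precision. The 15 genes of smallest p in each direction are named, 1 probe set per gene (the one of highest mean), and up to 6 members of a list. Symbols beginning with LOC, RGD, MGC or AABR and probe sets with several symbols were not eligible. Gene names came from the platform annotation, which gave 12783 probe sets 1 symbol, 312 several and 2771 none. The genes Fos, Atf4, Ddit3, Nr3c1, Fkbp5 and Nrxn2 were named after their values were seen. Members and lists were chosen with earlier results of these data known. The fit was checked on the real values with the rats shuffled and slopes of known size added to some probe sets. That check concerns the method and not the startle relations, and the share of added slopes it recovered is not given here. Figures were drawn with matplotlib 3.10.9. Alternatives are in the closing section. Protein features were not analysed here.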

Additional observations from a re-analysis of the deposited data

Results flagged for a closer look

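The genes named for the lists and the leading genes, 176 in all, were examined for a rat that lies apart from the other 8, by its gap to the nearest rat as a share of the whole range. In 23 of them the gap was above Dixon's 95% critical value for 9 samples. Chance flags about 1 in 20 groups.

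Rat 3, with the highest startle, was the highest for Glul, the astrocyte enzyme glutamine synthetase, at a log2 of 12.93, Tyrobp of microglia at 5.02, Hsd11b1 at 9.32, Mt2A, a metallothionein, at 8.74, Rpl24 at 11.44, Cux1 at 7.47 and Slc4a1 at 5.98. It was the lowest for Dnm1 at 11.63, Stmn2 at 10.40, Sst, the peptide somatostatin, at 9.30, Cnr1, the cannabinoid receptor, at 9.93, Nr3c2, the mineralocorticoid receptor, at 3.81 and the calcium channel gene Cacna1d at 4.76.

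Rat 8, with the lowest startle, was the lowest for Vldlr at 5.99, Ddx23 at 7.32, Tcf12 at 4.10, Dnajb9 at 5.56, Hsph1 at 9.72 and Crhbp at 5.34. It was the highest for the serotonin receptor gene Htr5a at 4.56, where the nearest rat had 3.55, and for Sox10 at 4.73. The remaining flags were rat 1, lowest for Ddx39b at 9.59, and rat 7, lowest for Adra1b at 7.13. So 21 of the 23 lay in rats 3 and 8, the animals at the ends of the startle range. Most of the 176 genes were named for a small p of the startle slope, which favours extreme values in those animals, so the tally and the chance rate are no evidence about these rats.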

How the results depend on the processing

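No paired analysis was possible because the 9 rats form 1 group. Adjusted p under 0.05 (0 probe sets as reported) gave 1 with no filter and 1 with 1 probe set per gene, Atf5 both times. Adjusted p under 0.1 (4 as reported) gave 0 after quantile normalization, with an intensity trend and robust moderation, with array weights, with the other 3 measures as covariates, with a term for arrays 8 and 9, without rats 8 and 9 and without the 2 farthest rats. Ranks of startle gave 1. Leaving out rat 9 gave 4, and leaving out any other single rat gave 0. At an unadjusted p under 0.01 the 122 positive probe sets became 213 with no filter, 64 with the lowest 70% left out, 240 with log2 of startle, 44 with covariates, 247 without rats 8 and 9, 66 without the 2 farthest rats and 68 to 293 without 1 rat. The 116 negative ones became 58 with covariates, 23 without the 2 farthest rats and 77 to 138 without 1 rat. At an unadjusted p under 0.05 the 847 positive ones became 2027 with no filter, 322 with the lowest 70% left out, 408 with covariates, 538 with a term for arrays 8 and 9, 505 without the 2 farthest rats, 539 with 1 probe set per gene and 522 to 881 without 1 rat. The 413 negative ones became 272 with the lowest 70% left out, 188 without the 2 farthest rats and 327 to 496 without 1 rat. In the dimmest class the 16.1% with a positive slope became 1.93% to 24.2% without 1 rat (rats 3 and 8) and 1.72% without the 2 farthest rats, and the 1.51% with a negative slope became 4.37% after quantile normalization and 0.714% to 1.51% without 1 rat. Filters and single probe sets test fewer or more probe sets; the cause of the other changes was not tested. Of 619 slopes of the leading genes recomputed, 617 kept their direction and side of the threshold, 2 passed it (Atf5, above) and 0 reversed. The classes by level in the report and their alternatives were chosen after seeing the data. With 9 arrays and 7 residual degrees of freedom, a relation missed here is not shown to be absent.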
